A study of Mus musculus with 18 samples.

Results

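ChIP-seq for CHD4 in wild-type (WT) granulocyte-monocyte progenitors (GMPs) gave 35790 peaks, and 6711 of them had a fold enrichment over background of at least 15. Of these strong CHD4 sites, 1745 had no overlap, not even of 1 bp, with any of the 7316 CHD4 peaks of *Gfi1*-/- GMPs, which was 26.0% of the strong sites and 4.88% of all WT sites. These 1745 sites, called lost here, are the subject of the following description, and the other 4966 strong sites, called kept, serve as the comparison. The sites were selected on their WT fold enrichment and on the absence of a *Gfi1*-/- peak, so neither value is a result about them. A lost site is a place without a called peak in 1 *Gfi1*-/- library, and a peak list does not measure how much CHD4 remained there.

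CHD4 is the ATPase that moves nucleosomes in NuRD, a complex that couples nucleosome remodeling with removal of histone acetyl groups and restrains or tunes transcription at promoters and enhancers. GFI1 is a zinc finger repressor that neutrophil development needs and that brings histone-modifying enzymes to its target genes. GMPs give rise to neutrophils by way of proliferating pre-neutrophils (preNeu), which make secondary granule proteins, and end as mature neutrophils (matNeu). Dimethylation of lysine 4 of histone H3 (H3K4me2) marks promoters and enhancers that are active or ready for use, and a lasting peak of it away from promoters is typical of enhancers.

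The cells came from bone marrow of adult C57BL/6 mice of 6 to 12 weeks. CHD4 ChIP-seq was done once in WT and once in *Gfi1*-/- GMPs, H3K4me2 ChIP-seq once each in WT GMP, preNeu and matNeu cells, and RNA-seq in 3 WT libraries for each of these stages. The cells were sorted by flow cytometry, the GMPs by KIT and CD34 among other markers. Nothing in the labels says that the 3 RNA-seq libraries of a stage came from separate mice, so p-values measure only the spread between these libraries. No RNA-seq or H3K4me2 data of *Gfi1*-/- cells were analysed here. The ATAC-seq lists titled preNeu and matNeu held the same 16307 peaks and were used as 1 list of open chromatin of neutrophil-lineage cells. Titles and cell type labels differed for 13 of 18 samples, and the titles were followed.

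The expression of stage markers matched the titles, apart from *S100a8*. *Mpo*, the myeloperoxidase of primary granules, ranged from 31476 to 33396 TPM (transcripts scaled to the library total) in the libraries titled GMP, against 1.87 to 7.65 TPM in those titled matNeu. *Ngp*, a secondary granule protein, lay at 57803 to 82697 TPM in preNeu and at 9.18 to 12.6 TPM in GMP libraries, and *Cxcr2*, a chemokine receptor of mature neutrophils, at 3027 to 3976 TPM in matNeu libraries. *S100a8*, also listed as a marker of matNeu cells, did not separate the neutrophil stages. It lay at 24049 to 29349 TPM in preNeu and at 14320 to 32250 TPM in matNeu libraries. Markers of other cells were also present and moved with the stage. The summed level of 2 B cell markers was 0.523 to 1.02 TPM in GMPs and 24.6 to 49.1 TPM in matNeu cells. The sum of 3 eosinophil markers was 849 to 1096 TPM in GMPs and 31.6 to 48.95 TPM in matNeu cells, where *Epx* was at 0. This fall came from *Prg2* and *Epx*. *Siglecf* did not fall with them, at 30.8 to 58.6 TPM in GMPs and 31.2 to 48.7 TPM in matNeu cells. For 2 basophil and mast cell markers the sum was 297 to 391 TPM in GMPs and 1.01 to 6.39 TPM in matNeu cells. Their part in the changes below was not tested, and in such bulk samples fewer cells of a type and less RNA per cell cannot be told apart.

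The DNA under 6 lost sites is shown as 200 bp around the summit of the WT peak, from the plus strand of GRCm38. The strongest 3 lost sites come first, followed by the strongest lost site next to *Retnlg* and *Ltf*, the genes with the largest rise in matNeu and in preNeu cells among those next to lost sites, and next to *Itga1*, which shared the highest number of lost sites. Capitals mark letters of the core motifs searched for GFI1 (AAATCA), SPI1 (GAGGAAGT), C/EBP factors (TTGCNNAA) and RUNX factors (TGTGGT) on either strand, and a window without capitals holds none of them.
*Hsdl2* site, chr4:59594715-59594914: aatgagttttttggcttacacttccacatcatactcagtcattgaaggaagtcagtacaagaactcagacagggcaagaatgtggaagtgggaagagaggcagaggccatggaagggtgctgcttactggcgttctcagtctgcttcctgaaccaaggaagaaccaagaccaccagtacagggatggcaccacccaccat
*Prdm1* site, chr10:44604860-44605059: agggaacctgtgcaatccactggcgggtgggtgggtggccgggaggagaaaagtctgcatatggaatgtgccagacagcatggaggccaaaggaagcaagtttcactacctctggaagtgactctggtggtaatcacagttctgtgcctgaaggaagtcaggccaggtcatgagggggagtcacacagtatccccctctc
*Tprg* site, chr16:25182025-25182224: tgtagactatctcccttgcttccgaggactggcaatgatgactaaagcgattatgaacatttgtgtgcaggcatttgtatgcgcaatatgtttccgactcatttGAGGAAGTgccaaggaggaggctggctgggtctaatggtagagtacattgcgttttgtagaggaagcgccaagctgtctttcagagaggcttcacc
*Retnlg* site, chr16:48865075-48865274: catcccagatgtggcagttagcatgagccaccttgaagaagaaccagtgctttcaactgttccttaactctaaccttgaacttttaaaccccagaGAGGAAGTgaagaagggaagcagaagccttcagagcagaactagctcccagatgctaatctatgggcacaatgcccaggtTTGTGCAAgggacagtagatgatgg
*Ltf* site, chr9:111037602-111037801: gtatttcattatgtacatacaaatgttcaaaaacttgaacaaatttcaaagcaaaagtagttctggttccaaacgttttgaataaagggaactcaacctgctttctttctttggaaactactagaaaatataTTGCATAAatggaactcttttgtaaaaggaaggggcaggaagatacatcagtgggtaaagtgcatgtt
*Itga1* site, chr13:115142160-115142359: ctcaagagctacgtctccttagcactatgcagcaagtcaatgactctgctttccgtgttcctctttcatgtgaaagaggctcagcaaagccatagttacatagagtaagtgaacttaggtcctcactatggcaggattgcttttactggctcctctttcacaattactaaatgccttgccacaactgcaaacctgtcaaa
The *Tprg* and *Retnlg* windows hold the SPI1 motif, and the *Retnlg* and *Ltf* windows a C/EBP motif. None of the 6 windows holds the GFI1 or the RUNX letters. The *Hsdl2* window lies largely in a repeat, with 63.5% of its bases marked as repeat in the assembly, against 0% in the *Retnlg* window.

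The strength of the lost sites in WT GMPs was uneven, and most lay close to the minimum. Their fold enrichment had a median of 17.4 with quartiles of 16.1 and 19.5, and the strongest reached 36.3, while the median of the kept sites was 25.1. The weakest member had a fold enrichment of 15.0039 and the strongest WT peak left out by the minimum 14.9968, and 415 lost sites lay between 15 and 16 against 554 WT peaks without a *Gfi1*-/- peak between 14 and 15. The −log10 q-values of the lost sites in WT GMPs ran from 43.3 upward with a median of 55.9. They come from the same WT peak call as the fold enrichment used for the selection, so they are no separate support. Lost peaks were narrower than kept ones, at a median width of 541 bp against 747 bp. These widths are not weighted to equal fold enrichment, and the part of peak strength in the gap was not tested.

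The share of strong sites that had no *Gfi1*-/- peak fell with WT strength. It was 59.7% (415 of 695) at a fold enrichment of 15 to 16, 32.9% (137 of 417) at 19 to 20, 12.9% (55 of 427) at 24 to 26 and 2.01% (12 of 597) at 30 to 35. None of the 701 sites of fold enrichment 40 or more was lost, which allows a share of up to 0.428% by the limit of 3 counts of the total and of up to 0.545% by the Wilson interval. At kept sites the *Gfi1*-/- peak was lower too, in a library of unknown depth and at sites selected on their WT value. The gap is therefore no measure of a change in CHD4. Kept sites of WT fold enrichment 15 to 16 had a median of 5.57 in the *Gfi1*-/- list, where the median of all peaks was 6.38. Unless stated otherwise, comparisons of lost with kept sites below weight the kept sites to the fold enrichment of the lost sites in steps of 1 unit, which leaves 4048 kept sites in the comparison. Counts of genes next to lost or kept sites are not weighted.

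**Figure D1:**
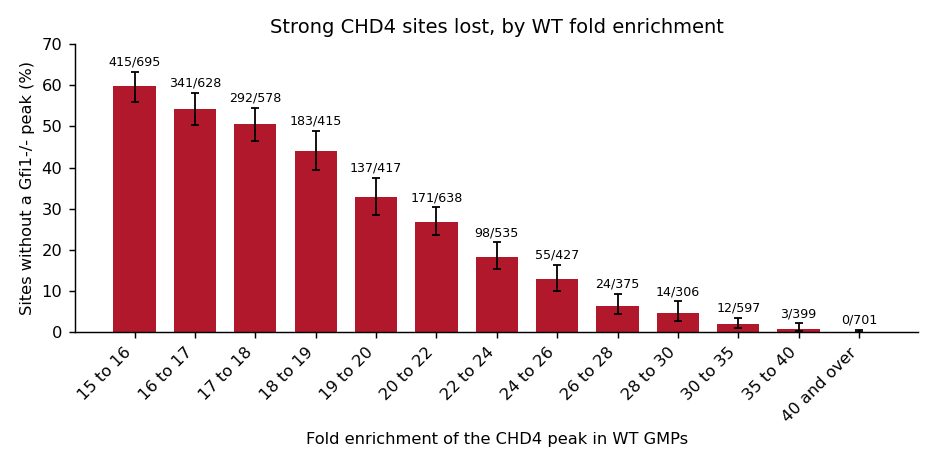
Share of strong CHD4 sites without a *Gfi1*-/- peak (y axis, %) in bins of WT fold enrichment (x axis), with the number lost of all sites in the bin above each bar and 95% Wilson intervals for counting error. The share is 59.7% in the lowest bin and 0 of 701 in the highest.

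Most lost sites had no *Gfi1*-/- CHD4 peak within 10 kb. The nearest *Gfi1*-/- peak was at a median of 14.5 kb, 756 of the lost sites (43.3%) had one within 10 kb and 191 within 1 kb, and the closest was 164 bp away. Another WT CHD4 site of any strength lay within 10 kb of 88.3% of the lost sites and of 88.3% of kept sites of equal fold enrichment. A kept strong site lay within 10 kb of 38.2% of the lost and 43.7% of the kept sites, a pair of values that the selection itself touches, since it defines what is kept. All chromosomes with strong sites took part, with a lost share between 22.3% on chromosome 15 and 31.3% on chromosome 7, and 1 lost site lay on an unplaced scaffold. Within 5 Mb of *Gfi1* on chromosome 5, 7 of 36 strong sites were lost.

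Lost sites sat in the same kinds of places as kept sites of equal strength. A promoter, taken as the 2 kb before and the 500 bp after any annotated start (TSS) of a protein-coding transcript, also one inside a gene, held 9.46% of lost summits (165 of 1745) and 9.16% of kept summits, a difference of 0.293 percentage points (95% interval -1.62 to 2.21). Introns held 44.4% (774) against 45.9%, and intergenic DNA also 44.4% (774) against 43.1%. UTRs and coding exons together held few, with 23 and 9 lost summits. The median distance to the nearest protein-coding TSS was 24.6 kb for lost and 22.9 kb for kept sites. For each of these classes of location the interval of the difference included 0.

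H3K4me2 was found at fewer lost sites than at kept sites of equal CHD4 enrichment, in each of the stages. In GMPs 31.9% of the lost summits (556 of 1745) lay in an H3K4me2 peak against 35.2% of the kept summits, a difference of -3.32 percentage points (95% interval -6.40 to -0.243). In preNeu cells the shares were 60.7% (1060) and 67.1%, which differed by -6.36 percentage points (95% interval -9.49 to -3.23). In matNeu cells they were 53.2% (928) and 59.5%, with a difference of -6.33 percentage points (95% interval -9.56 to -3.10). In lost and kept sites alike the share was lowest in GMPs and highest in preNeu cells, and the H3K4me2 lists themselves differed in the same order, with 37643 peaks in GMP, 44094 in matNeu and 49578 in preNeu cells.

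These intervals cover counting error only, take sites as independent and are not adjusted for the 57 measures compared, and 1 library per group allows no replicate check. The GMP difference depended on the settings. It was -0.29 percentage points (-5.63 to 5.06) among sites of fold enrichment 20 or more, -1.02 (-3.61 to 1.56) with a minimum of 10, and -7.15 (-10.4 to -3.90) when an H3K4me2 peak within 500 bp of the summit counted. The preNeu difference was -3.66 (-9.04 to 1.72) with a minimum of 20 and -1.82 (-4.42 to 0.776) with H3K4me2 lists of equal covered length, where the matNeu difference was -2.78 (-5.50 to -0.0618).

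Sites outside promoters showed the difference by themselves. There, 58.6% of 1580 lost summits and 65.3% of kept summits were marked in preNeu cells, a difference of -6.70 percentage points (95% interval -10.02 to -3.37), and in GMPs the difference was -4.21 percentage points (95% interval -7.37 to -1.06). At the 165 lost promoter sites the GMP share was 64.8% against 60.2%, and the interval of 4.60 percentage points (95% interval -5.72 to 14.9) included 0, as it did in the other stages. Whether promoters and other sites differed from each other was not tested.

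Read across the stages, the lost sites fell into 3 main states. The largest group, 583 sites (33.4%), was never marked by H3K4me2, against 26.0% of kept sites of equal strength, a difference of 7.37 percentage points (95% interval 4.39 to 10.3). Next came 463 sites (26.5%) without a peak in GMPs that had one in both preNeu and matNeu cells, against 29.7% of kept sites (-3.16 percentage points, 95% interval -6.07 to -0.241). A further 438 sites (25.1%) were marked in all 3 stages, against 27.7% (-2.60 percentage points, 95% interval -5.48 to 0.270). The remaining sites were marked in preNeu alone (120), GMPs alone (75), GMP and preNeu cells (39), matNeu alone (23) or GMP and matNeu cells (4). Where a lost site did carry H3K4me2, the peak had much the same height as at kept sites, with median fold enrichments of 2.84 against 2.82 in GMPs, 6.24 against 6.26 in preNeu and 4.61 against 4.62 in matNeu cells.

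**Figure D2:**
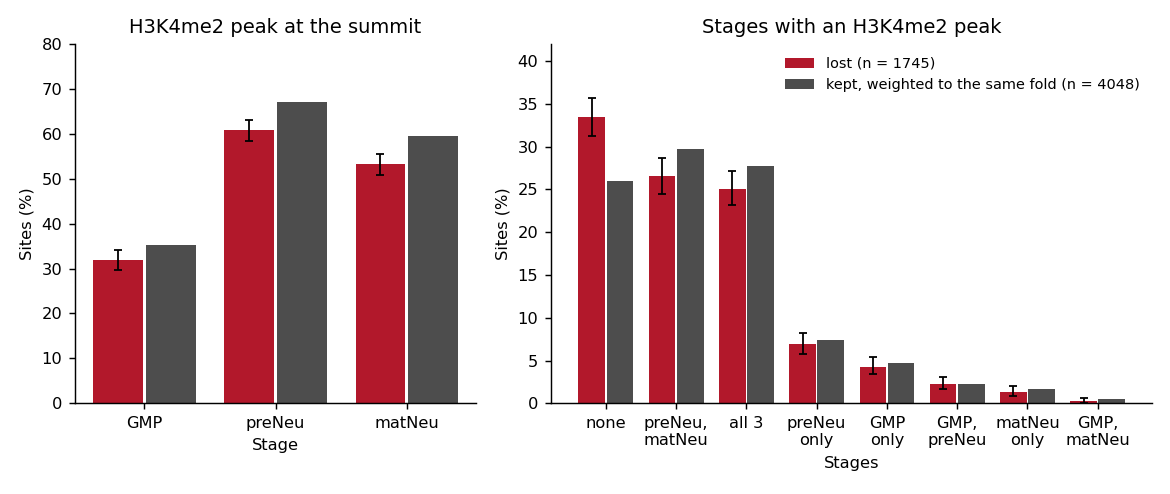
Share of lost sites (red) and of kept sites weighted to the same CHD4 fold enrichment (grey) with an H3K4me2 peak over the CHD4 summit (y axis, %), by stage on the left and by the combination of stages on the right. Error bars on the lost sites are 95% Wilson intervals for counting error. Lost sites are at 60.7% against 67.1% in preNeu cells and at 33.4% against 26.0% in the class never marked.

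Among the lost sites themselves, the mark differed by location, and intervals overlapped between classes of CHD4 strength. H3K4me2 in GMPs was found at 64.8% (57.3 to 71.7) of lost promoter sites, 30.7% (27.6 to 34.1) of intronic and 25.8% (22.9 to 29.04) of intergenic sites (95% Wilson intervals). In preNeu cells the same classes stood at 81.2%, 61.5% and 56.2%. Never marked were 14.5% of promoter, 32.7% of intronic and 37.6% of intergenic lost sites. By strength, the share marked in GMPs was 29.6% (25.4 to 34.2) at a fold enrichment of 15 to 16 and 32.6% (27.5 to 38.1) at 20 to 25, and 37.97% (28.1 to 49.0) among the 79 strongest.

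Peaks of the ATAC-seq list, which is titled for neutrophil stages and not for GMPs, were sparse at both lost and kept sites. An ATAC-seq peak covered 9.40% of the lost summits (164 of 1745) and 10.4% of the kept ones, a difference of -1.04 percentage points (95% interval -2.99 to 0.900), and among sites of fold enrichment 20 or more the difference was -3.74 (-7.03 to -0.452). Lost promoter sites were open in 27.9% of cases, intronic ones in 8.91% and intergenic ones in 6.20%.

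The sequence under lost sites held the core motif of GFI1 less often than that of kept sites. Within 100 bp of the summit, AAATCA was present on either strand at 10.6% of 1744 lost sites and 13.04% of kept sites, a difference of -2.44 percentage points (95% interval -4.54 to -0.332), while 12.04% of all WT sites held it and 15.4% of windows of the same length 1000 bp downstream of them. The letters were thus no more common under CHD4 summits than beside them. In windows of 100 bp the difference was -1.17 (-2.68 to 0.352), and with a fold enrichment minimum of 20 it was -2.60 (-5.94 to 0.737). RUNX factors, which set up blood progenitor enhancers, differed most of the motifs searched. TGTGGT was at 24.3% of lost and 28.4% of kept sites (-4.16 percentage points, 95% interval -7.03 to -1.29), against 23.9% of all WT sites and 15.5% of the windows downstream, and among sites of fold enrichment 20 or more the difference was -8.00 (-12.8 to -3.24).

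The C/EBP core TTGCNNAA, bound by the factors that drive granulocyte genes, was at 17.8% of lost and 20.6% of kept sites (-2.79 percentage points, 95% interval -5.35 to -0.227), and in windows of 100 bp the difference was -0.689 (-2.73 to 1.35). SPI1 (PU.1) is the ETS factor of myeloid enhancers. Its core GAGGAAGT was at 13.1% of lost and 11.8% of kept sites, 1.25 percentage points (95% interval -0.897 to 3.40), and in windows of 100 bp at 2.56 percentage points more lost sites (0.777 to 4.33), but without weighting the difference was -0.0262 (-1.87 to 1.81). It was found at 11.7% of all WT sites but at 1.54% of the windows downstream. For the IRF core AANNGAAA the shares were 37.8% and 37.9%, and for the GATA core AGATAA 7.68% and 8.39%, with intervals that included 0. The IRF and GATA letters were present at 35.1% and 8.67% of all WT sites.

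Without a factor in mind, all 2080 sequences of 6 letters were compared, each counted together with its reverse complement. The differences ran from -4.73 to 4.77 percentage points. Among the letters most in excess at lost sites were GAGGAA (52.98% against 48.2%), CTCTCA (21.04% against 16.4%), AGGAAG (59.4% against 54.9%) and AAGAGG (31.4% against 27.3%), of which GAGGAA and AGGAAG overlap the SPI1 core. The letters most in deficit were AGAAAA (26.1% against 30.9%), ACCACA (24.3% against 28.4%), CAAACC (10.8% against 14.8%), CTTTTC (18.1% against 22.1%) and AAACCA (23.3% against 26.99%). ACCACA is the reverse complement of the RUNX core, so its shares repeat the RUNX comparison above and add nothing to it. These sequences are the extremes of 2080 comparisons and were given no intervals, and whether they exceed counting error was not tested. Base composition differed as well. A GC content of at least 50% was found in 29.5% of lost and 24.95% of kept windows, a difference of 4.52 percentage points (95% interval 1.61 to 7.43), and its part in the motif differences was not tested.

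**Figure D3:**
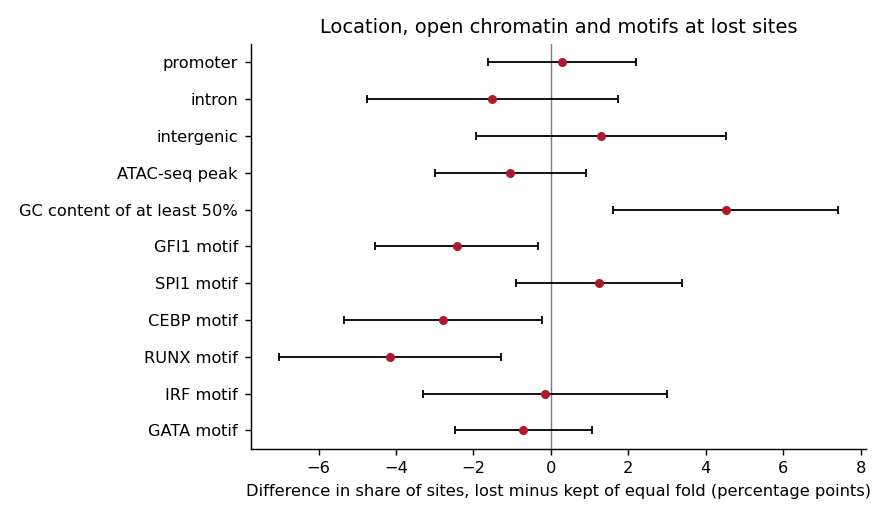
Difference in the share of sites with each feature (x axis, percentage points), lost minus kept sites weighted to the same CHD4 fold enrichment, with 95% intervals for counting error; the vertical line is 0. The intervals lie below 0 for the GFI1, C/EBP and RUNX motifs and above 0 for a GC content of at least 50%, and include 0 for the other features shown.

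Each lost site was given the protein-coding gene with the nearest TSS, which is an assignment by distance and does not show that the site acts on that gene. The 1744 lost sites on assembled chromosomes fell to 1254 genes, which were 5.76% of the 21755 protein-coding genes. Distances given for a site are to the nearest annotated transcript start of the gene, which can lie inside it. Of these, 914 had 1 lost site, 242 had 2, 65 had 3 and 33 had 4 or more, and 783 were also nearest to a kept strong site while 471 were not. A minimum of 1 TPM in at least 3 libraries was met by 954 of the 1254 genes, and the other 300 were not tested. The mean level reached 1 TPM for 897 genes in GMPs, 844 in preNeu and 848 in matNeu cells.

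Genes next to lost sites were called higher in the neutrophil stages more often, and lower less often, than the tested genes as a whole, without a test of that difference and with the share of lower calls depending on the filter. In preNeu cells against GMPs, 238 of the 954 tested genes were called higher by limma at an adjusted p under 0.05 (24.9%) and 360 lower (37.7%), where 14.7% of all 13061 tested genes were called higher and 44.3% lower. In matNeu cells against GMPs, 347 were higher (36.4%) and 408 lower (42.8%), beside 22.8% and 54.1% of all tested genes. In matNeu against preNeu cells, 338 were higher (35.4%) and 307 lower (32.2%), beside 22.9% and 39.8%. The median log2 change of the genes next to lost sites was -0.25, -0.21 and 0.04 in these comparisons, and that of all tested genes -0.52, -0.92 and -0.32. Log2 changes are of TPM + 1, which understates the change of low genes, and stand beside these medians. Without a filter on TPM the lower calls were no longer less common next to lost sites, at 30.5% beside 27.5% of all genes for preNeu against GMP, 36.1% beside 35.3% for matNeu against GMP and 25.3% beside 24.0% for matNeu against preNeu.

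The split between higher and lower calls depended on the scaling of the libraries. After TPM was rescaled by the median ratio to the geometric mean of the libraries, 35.4% of the genes next to lost sites were higher and 24.4% lower in preNeu cells than in GMPs, beside 23.2% and 28.2% of all genes. In matNeu cells against GMPs the same scaling gave 48.2% higher and 31.7% lower, beside 34.4% and 41.8%. Higher calls were more common next to lost sites than among all genes under both scalings.

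Genes next to kept strong sites showed much the same shares, counted without weighting to equal CHD4 enrichment. Of the 327 tested genes with lost sites and no kept one, 21.7% were higher in preNeu cells and 31.8% in matNeu cells than in GMPs. Among the 627 genes with both kinds the shares were 26.6% and 38.8%, and among 853 genes with kept sites only 25.1% and 33.5%. Shares were also counted over all sites at equal CHD4 enrichment, where a site with an untested nearest gene counts as not higher. The nearest gene was tested for 78.1% of lost and 79.5% of kept sites, so these shares have another base than those of tested genes. The nearest gene was higher in preNeu cells than in GMPs for 19.4% of lost and 22.2% of kept sites, a difference of -2.87 percentage points (95% interval -5.51 to -0.230). For matNeu cells against GMPs these shares were 29.1% and 31.5% (-2.43 percentage points, 95% interval -5.43 to 0.569). Sites that share a gene are not independent, which these intervals ignore.

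**Figure D4:**
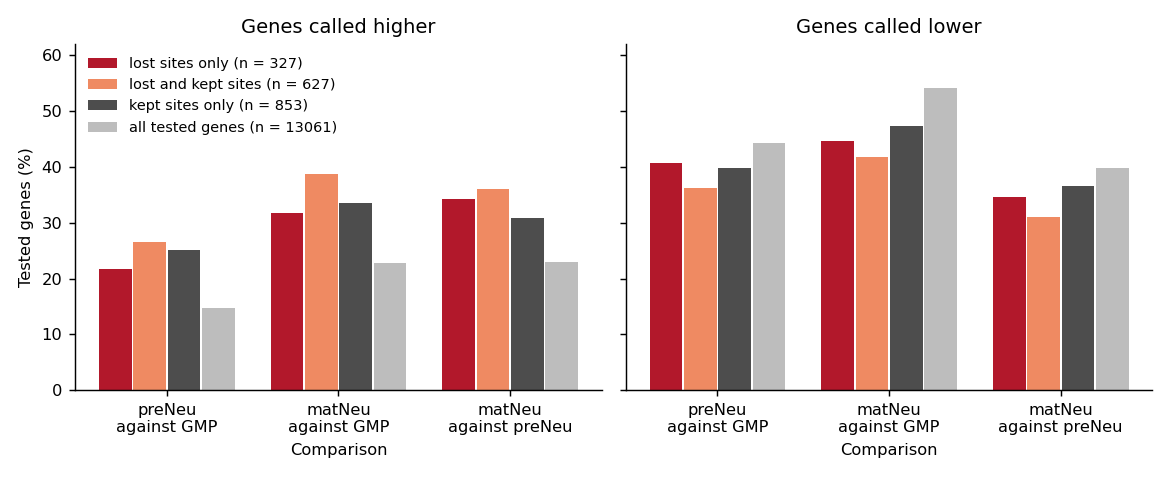
Share of tested genes (y axis, %) called higher (left) or lower (right) by limma in each comparison of stages, for genes nearest to lost strong CHD4 sites only, to lost and kept ones, to kept ones only, and for all tested genes. For matNeu cells against GMPs the shares higher are 31.8%, 38.8%, 33.5% and 22.8%. The shares are not weighted to equal CHD4 fold enrichment.

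Shares of higher and lower genes varied with the H3K4me2 state of the lost site. Genes next to the lost sites with H3K4me2 in both neutrophil stages but not in GMPs (341 tested genes) were higher in matNeu cells than in GMPs in 45.2% of cases and lower in 35.8%, with a median log2 change of 0.31. Next to sites never marked (324 genes), 33.6% were higher and 48.1% lower, with a median of -0.54. Next to sites marked in all 3 stages (334 genes), the shares were 37.4% and 40.4% and the median -0.13. The 54 genes beside sites marked in GMPs alone were higher in 16.7% and lower in 55.6%, with a median of -0.96. Among all tested genes 22.8% were higher and 54.1% lower, with a median of -0.92. The lower calls and the median of the 54 genes thus lay near those of all tested genes. A gene can stand in several of these groups, and the differences between them were not tested.

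Of 20 genes listed for stem and progenitor cells, 4 were nearest to a lost site (8 sites in all) and 10 to a kept strong one. In this and the following lists a gene can count for both kinds of site. All 4 genes next to a lost site were lower in both preNeu and matNeu cells than in GMPs, beside 44.3% and 54.1% of all tested genes, although with median-ratio scaling *Runx1* was no longer called in preNeu cells. *Cd34*, a surface sialomucin of progenitors that was itself used to sort the GMPs, had levels of 498, 486 and 425 TPM in GMPs, 1.22, 3.27 and 2.13 TPM in preNeu cells and 1.84, 2.35 and 1.56 TPM in matNeu cells. Its lost site, chr1:194946431-194946832, 7.77 kb downstream of its nearest TSS, had a fold enrichment of 20.1 and no H3K4me2 peak at any stage, and 3 kept strong sites lay nearest to the same gene. *Myb*, a transcription factor of dividing progenitors, stood at 192, 188 and 212 TPM in GMPs, 42.8, 52.05 and 81.4 TPM in preNeu cells and 5.17, 7.87 and 6.41 TPM in matNeu cells, without overlap between the stages (log2 change of -4.74 ± 0.23 SE for matNeu against GMP, adjusted p = 1.34e-08). Both lost *Myb* sites, chr10:21188718-21189321, 27.9 kb upstream of its nearest TSS, and chr10:21153512-21153954, 7.17 kb downstream of its nearest TSS, carried H3K4me2 at all 3 stages. *Bcl2*, an inhibitor of apoptosis, ranged over 30.04, 28.9 and 25.1 TPM in GMPs, 1.19, 0.869 and 3.18 TPM in preNeu cells and 0.918, 0.256 and 0.684 TPM in matNeu cells. *Bcl2* had a log2 change of -4.18 ± 0.33 SE for matNeu against GMP (adjusted p = 5.96e-07). Its 2 lost sites lay deep in introns and were never marked by H3K4me2. *Runx1*, a master regulator of blood formation with 3 lost sites, fell less, with 69.1, 66.6 and 62.3 TPM in GMPs, 33.4, 38.7 and 35.8 TPM in preNeu cells and 23.0, 17.2 and 22.5 TPM in matNeu cells. *Runx1* had a log2 change of -1.62 ± 0.16 SE for matNeu against GMP (adjusted p = 3.05e-06).

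Among 9 primary granule genes, 3 were nearest to a lost site and 5 to a kept strong one, and the 3 next to a lost site moved in different directions. *Ms4a3*, a membrane protein of granulocyte and monocyte progenitors, had 3 lost and 2 kept sites and levels of 1168, 1094 and 1188 TPM in GMPs, 706, 670.2 and 630.5 TPM in preNeu cells and 0.446, 0.914 and 1.63 TPM in matNeu cells. The matNeu libraries lay far below all others (log2 change of -9.21 ± 0.19 SE for matNeu against GMP, adjusted p = 8.34e-11), and the strongest lost site, chr19:11647311-11647724 with a fold enrichment of 22.9, had H3K4me2 in GMPs alone. *Ctsc*, the protease that activates granule serine proteases, gave 209, 221 and 178 TPM in GMPs, 15.9, 24.7 and 29.3 TPM in preNeu cells and 18.6, 21.8 and 25.4 TPM in matNeu cells (log2 change of -3.16 ± 0.22 SE for matNeu against GMP, adjusted p = 2.04e-07), and the neutrophil stages overlapped. *Lyz2*, the lysozyme of myeloid cells, rose, with 1088, 613 and 765 TPM in GMPs, 35691, 29738 and 29242 TPM in preNeu cells and 28376, 35226 and 26946 TPM in matNeu cells (log2 change of 5.23 ± 0.19 SE for matNeu against GMP, adjusted p = 1.98e-09), and its lost site at chr10:117281755-117282542 covered the promoter and was marked by H3K4me2 at all 3 stages and open in ATAC-seq. Reads of *Lyz2* may be shared with its close copy *Lyz1*, which leaves the level uncertain.

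Of 15 secondary and tertiary granule genes, 3 were nearest to a lost site and 5 to a kept strong one. All 3 next to a lost site were higher in both neutrophil stages than in GMPs, beside 14.7% and 22.8% of all tested genes. *Ltf*, the iron-binding lactoferrin of secondary granules, had 7.94, 6.23 and 4.22 TPM in GMPs, 23924, 24636 and 27605 TPM in preNeu cells and 400.2, 578 and 423 TPM in matNeu cells. Every preNeu library exceeded every other by far, with a log2 change of 11.83 ± 0.20 SE for preNeu against GMP, adjusted p = 9.12e-11, and one of 6.05 ± 0.20 SE for matNeu against GMP, adjusted p = 9.33e-10. Its stronger lost site, chr9:111037540-111037907, 1.10 kb upstream of its nearest TSS, lay 18.5 kb inside the gene before an internal transcript start, had a fold enrichment of 19.7 and carried H3K4me2 in preNeu cells only, while the other, chr9:111009544-111010136, 9.33 kb upstream of its nearest TSS, carried it in preNeu and matNeu cells. *Plbd1*, a phospholipase-like granule protein, was at 2.41, 2.39 and 2.18 TPM in GMPs, 971, 931 and 1047 TPM in preNeu cells and 1119.5, 1223 and 1339 TPM in matNeu cells. *Plbd1* had a log2 change of 8.21 ± 0.11 SE for preNeu against GMP (adjusted p = 2.56e-11). The lost site of *Plbd1*, chr6:136654377-136654981, 7.21 kb downstream of its nearest TSS, was one of the stronger ones with a fold enrichment of 27.8, and had H3K4me2 in preNeu and matNeu cells but not in GMPs. *Cybb*, the catalytic subunit of the phagocyte NADPH oxidase, gave 98.6, 81.5 and 61.3 TPM in GMPs, 1838, 1886 and 2171 TPM in preNeu cells and 239, 317 and 303 TPM in matNeu cells (log2 change of 4.62 ± 0.18 SE for preNeu against GMP, adjusted p = 1.45e-08), and the same combination of H3K4me2 peaks was found at its lost site, chrX:9462680-9463171, which held the GFI1 and SPI1 motifs.

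Of 20 genes of mature neutrophils, 6 were nearest to a lost site and also 6 to a kept strong one. All 6 next to a lost site were higher in matNeu cells than in GMPs and than in preNeu cells, beside 22.8% and 22.9% of all tested genes. The list was drawn up as genes of mature neutrophils, so this direction is not independent of the choice, and the same holds for the progenitor and granule lists. For 4 of the 6 genes next to a lost site, *Retnlg*, *Il1b*, *Clec4d* and *Fcgr4*, no kept strong site was nearest. *Retnlg*, a resistin-like secreted protein, had 0, 2.03 and 0.927 TPM in GMPs, 99.6, 97.5 and 105 TPM in preNeu cells and 12529.9, 10881 and 6505 TPM in matNeu cells, and its log2 change of 12.38 ± 0.35 SE for matNeu against GMP, adjusted p = 4.49e-10, was the largest rise among genes next to lost sites. Both strong CHD4 sites of *Retnlg* were lost, chr16:48865006-48865377, 7.45 kb upstream of its nearest TSS with a fold enrichment of 22.4, and chr16:48868573-48868986, 3.87 kb upstream of its nearest TSS with 17.4. Both carried H3K4me2 in preNeu and matNeu cells but not in GMPs, lay in an ATAC-seq peak and held the SPI1 and C/EBP motifs. *Clec4d*, a C-type lectin receptor for microbial glycolipids, was at 4.58, 2.39 and 3.08 TPM in GMPs, 2.61, 0.992 and 2.91 TPM in preNeu cells and 1946, 2104 and 2022 TPM in matNeu cells. *Clec4d* had a log2 change of 8.89 ± 0.27 SE for matNeu against GMP (adjusted p = 6.48e-10). GMP and preNeu libraries of *Clec4d* overlapped, and its lost site, chr6:123252707-123253260, 9.23 kb upstream of its nearest TSS, had H3K4me2 in preNeu and matNeu cells and an ATAC-seq peak. *Il1b*, the interleukin 1 beta precursor, gave 0.577, 1.10 and 2.36 TPM in GMPs, 0.119, 0.526 and 0.471 TPM in preNeu cells and 1908, 1342 and 2236 TPM in matNeu cells (log2 change of 9.65 ± 0.30 SE for matNeu against GMP, adjusted p = 7.33e-10), with H3K4me2 at its lost site in preNeu cells only. *Fcgr4*, an activating receptor for immunoglobulin G, had 3.68, 4.39 and 6.14 TPM in GMPs, 57.04, 62.03 and 53.9 TPM in preNeu cells and 529, 457 and 446 TPM in matNeu cells, so that the stages did not overlap (log2 change of 6.40 ± 0.17 SE for matNeu against GMP, adjusted p = 3.24e-10). Its lost site, chr1:170998183-170998598, 20.5 kb upstream of its nearest TSS, just passed the minimum with a fold enrichment of 15.3. It was marked by H3K4me2 at all 3 stages and lay in a peak of the single ATAC-seq list.

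*Ccr1*, a chemokine receptor, had 1 lost and 9 kept sites and 7.24, 5.49 and 4.59 TPM in GMPs, 40.6, 53.8 and 60.7 TPM in preNeu cells and 968, 1023 and 1283 TPM in matNeu cells. *Ccr1* had a log2 change of 7.34 ± 0.20 SE for matNeu against GMP (adjusted p = 3.27e-10). *Itgam*, which encodes the integrin CD11b, had 2 lost sites, chr7:128056145-128056582, 6.30 kb upstream of its nearest TSS, and chr7:128057052-128057545, 5.38 kb upstream of its nearest TSS, with 12.8, 17.9 and 13.02 TPM in GMPs, 493, 538 and 642 TPM in preNeu cells and 838, 837 and 899.9 TPM in matNeu cells. *Itgam* had a log2 change of 5.80 ± 0.15 SE for matNeu against GMP (adjusted p = 2.64e-10). At both genes H3K4me2 was absent from the lost sites in GMPs and present in preNeu cells.

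Of 20 monocyte and macrophage genes, 8 were nearest to a lost site (18 sites in all) and 12 to a kept one, and 5 of the 8 were lower and 3 higher in matNeu cells than in GMPs, beside 54.1% and 22.8% of all tested genes. *F13a1*, the A subunit of coagulation factor XIII, had a lost site among the strongest, chr13:37142873-37144183, 93.5 kb upstream of its nearest TSS, with a fold enrichment of 30.5. Its levels were 1005, 893 and 821 TPM in GMPs, 9.70, 10.3 and 19.97 TPM in preNeu cells and 2.63, 1.58 and 4.98 TPM in matNeu cells (log2 change of -7.88 ± 0.32 SE for matNeu against GMP, adjusted p = 4.06e-09), and neither of its lost sites was marked by H3K4me2 at any stage. *Zeb2*, a transcriptional repressor, fell and partly returned, with 159.6, 142 and 134 TPM in GMPs, 4.59, 6.78 and 7.41 TPM in preNeu cells and 35.2, 25.03 and 36.1 TPM in matNeu cells. *Zeb2* had a log2 change of -4.35 ± 0.21 SE for preNeu against GMP, adjusted p = 8.8e-08, and one of -2.16 ± 0.21 SE for matNeu against GMP (adjusted p = 2.77e-06). Of its 4 lost sites, the one at an internal transcript start 3.92 kb into the gene was marked by H3K4me2 at all 3 stages. *Id2*, an inhibitor of E protein transcription factors, had 5 lost and 13 kept sites and rose to 396, 415 and 386 TPM in preNeu cells from 11.3, 7.25 and 9.40 TPM in GMPs (log2 change of 5.29 ± 0.16 SE for preNeu against GMP, adjusted p = 3.86e-09). None of the 5 was marked in GMPs, and 3 were in preNeu cells. Of the others, *Ly86* (-5.14), *Klf4* (-2.13) and *Ly6c2* (-1.69) were lower and *Cd14* (3.14) and *Tlr7* (2.35) higher in matNeu cells than in GMPs, each as a log2 change.

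In the list of 20 myeloid transcription factors 9 genes were nearest to kept strong sites and 3 to lost sites, *Etv6*, *Jun* and *Irf4*. *Etv6*, an ETS repressor needed by blood stem cells, had 7 lost sites along its introns and 4 kept ones. Its levels were 54.8, 69.2 and 71.3 TPM in GMPs, 29.9, 38.2 and 36.7 TPM in preNeu cells and 30.9, 41.6 and 51.8 TPM in matNeu cells (log2 change of -0.66 ± 0.20 SE for matNeu against GMP, adjusted p = 0.0122), but with median-ratio scaling the log2 change was 0.21 with an adjusted p of 0.332. *Jun*, the AP-1 factor, had 2 lost and 14 kept sites and dipped in preNeu cells, with 56.7, 55.6 and 62.96 TPM in GMPs, 10.002, 12.6 and 18.4 TPM in preNeu cells and 139, 87.0 and 156 TPM in matNeu cells. *Jun* had a log2 change of -2.06 ± 0.25 SE for preNeu against GMP, adjusted p = 5.36e-05, and one of 3.12 ± 0.25 SE for matNeu against preNeu (adjusted p = 1.26e-06). *Irf4* did not reach the minimum for testing, with 0, 0 and 0 TPM in GMPs, 0.436, 0.488 and 0.808 TPM in preNeu cells and 0.957, 1.46 and 1.06 TPM in matNeu cells. None of 15 genes of NuRD subunits and GFI1 partners was nearest to a lost or to a kept strong site.

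Among genes of other lineages, those nearest to a lost site were 1 of 15 for eosinophils, basophils and mast cells (*Ccr3*), 1 of 15 for lymphoid cells (*Bach2*), and *Hbb-bt* and *Car2* among the 15 erythroid and megakaryocyte genes. Kept strong sites were nearest to 3, 3 and 2 genes of these lists, in the same order. *Hbb-bt*, an adult beta globin, did not pass the minimum for testing and was listed at 0 in every GMP library. *Car2*, a carbonic anhydrase abundant in erythroid cells, was at 18.9, 33.9 and 24.2 TPM in GMPs, 4.28, 7.62 and 12.9 TPM in preNeu cells and 1.26, 1.42 and 2.77 TPM in matNeu cells (log2 change of -3.24 ± 0.38 SE for matNeu against GMP, adjusted p = 1.42e-05), without overlap between the stages. *Ccr3*, the eotaxin receptor, was higher in preNeu cells than in GMPs (log2 change of 2.09 ± 0.37 SE for preNeu against GMP, adjusted p = 0.000689) at levels of 3.39, 3.19 and 7.93 TPM against 0.660, 0 and 0.273 TPM.

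The genes with the most lost sites had 5 to 7 of them. *Itga1*, the collagen-binding integrin alpha 1, had 7 lost and 4 kept strong sites, and its levels were 24.1, 25.5 and 13.4 TPM in GMPs, 0.814, 0.483 and 0.425 TPM in preNeu cells and 0.193, 0.290 and 0.0389 TPM in matNeu cells. *Itga1* had a log2 change of -4.18 ± 0.29 SE for matNeu against GMP (adjusted p = 2.28e-07). The lost *Itga1* sites ran from the promoter, chr13:115102709-115103152, 0.905 kb upstream of its nearest TSS, to chr13:115212459-115213243, 110.8 kb upstream of its nearest TSS, and 4 of the 7 were never marked by H3K4me2. *Lpp*, a cytoskeletal LIM domain protein that is nearest to 74 WT CHD4 sites, had 7 lost and 19 kept strong sites and 1.42, 1.38 and 0.698 TPM in GMPs, 0.533, 0.628 and 1.42 TPM in preNeu cells and 3.57, 4.74 and 5.26 TPM in matNeu cells. *Lpp* had a log2 change of 1.36 ± 0.29 SE for matNeu against GMP (adjusted p = 0.0013). *Trib1*, a pseudokinase that promotes degradation of C/EBP alpha, had 5 lost sites, from 80.3 to 183 kb downstream of its nearest TSS. All 5 carried H3K4me2 in preNeu and matNeu cells, 1 of them also in GMPs, and *Trib1* stood at 1.32, 1.09 and 1.06 TPM in GMPs, 6.21, 8.66 and 7.19 TPM in preNeu cells and 118, 91.04 and 172 TPM in matNeu cells. *Trib1* had a log2 change of 5.84 ± 0.26 SE for matNeu against GMP (adjusted p = 6.3e-09). *Trps1*, a GATA-type repressor with 5 lost sites, was lowest in preNeu cells, with 15.1, 11.8 and 9.48 TPM in GMPs, 0.501, 0.330 and 0.620 TPM in preNeu cells and 28.3, 29.4 and 51.1 TPM in matNeu cells. *Trps1* had a log2 change of -3.13 ± 0.29 SE for preNeu against GMP, adjusted p = 7.68e-06, and one of 4.60 ± 0.29 SE for matNeu against preNeu (adjusted p = 1.77e-07). *Apbb1ip*, an adaptor that links RAP1 to integrins, also with 5, was higher in matNeu cells (log2 change of 2.18 ± 0.19 SE for matNeu against GMP, adjusted p = 1.48e-06), and *Fggy*, a carbohydrate kinase, lower (log2 change of -3.25 ± 0.46 SE for matNeu against GMP, adjusted p = 6.91e-05). *Pik3r1*, the regulatory subunit of PI3 kinase, had 38.3, 49.8 and 46.4 TPM in GMPs, 27.01, 25.1 and 38.5 TPM in preNeu cells and 42.6, 31.6 and 42.8 TPM in matNeu cells, and its log2 change of -0.20 for matNeu against GMP (adjusted p = 0.386) became 0.66 (adjusted p = 0.00737) with median-ratio scaling.

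The strongest 15 lost sites, all with a fold enrichment of at least 30.04, were nearest to 14 genes. Of these 15 sites 9 were intergenic, 4 intronic and 2 at promoters, none had an ATAC-seq peak and 10 were never marked by H3K4me2. The strongest of all lay in an intron of *Hsdl2*, a peroxisomal dehydrogenase-like gene, at chr4:59594401-59595125, 0.505 kb downstream of its nearest TSS, an internal one, and 13.2 kb into the gene, with a fold enrichment of 36.3 and H3K4me2 in preNeu cells only. *Hsdl2* levels were 56.3, 56.9 and 76.01 TPM in GMPs, 47.8, 65.7 and 63.5 TPM in preNeu cells and 22.7, 31.1 and 17.6 TPM in matNeu cells (log2 change of -1.39 ± 0.22 SE for matNeu against GMP, adjusted p = 0.000177), and with median-ratio scaling the log2 change was -0.53 with an adjusted p of 0.0577. The next, chr10:44604456-44605359, was nearest to *Prdm1*, which encodes the repressor BLIMP1, and was marked at all 3 stages, although *Prdm1* itself stayed under the minimum for testing with 0, 0 and 0.655 TPM in GMPs, 0, 0.605 and 1.26 TPM in preNeu cells and 0.406, 0.411 and 0.284 TPM in matNeu cells. *Tprg* was nearest to a pair of the strongest sites, chr16:25181359-25182370, 105 kb upstream of its nearest TSS, and chr16:25177959-25178607, 109 kb upstream of its nearest TSS, neither of which was marked by H3K4me2, and it was listed at 0 in 8 of 9 libraries.

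Several of these sites lay next to expressed genes of myeloid cells. *Cd47*, the signal that spares cells from phagocytosis, had a lost site of fold enrichment 31.9 that was marked by H3K4me2 at all 3 stages. Its levels were 698, 695 and 672 TPM in GMPs, 904, 989 and 904 TPM in preNeu cells and 366, 398 and 409 TPM in matNeu cells, a log2 change of -0.82 ± 0.09 SE for matNeu against GMP, adjusted p = 1.09e-05, but 0.07 (adjusted p = 0.538) with median-ratio scaling. *Acer3*, an alkaline ceramidase, had a lost site over its promoter, chr7:98321030-98321470, with a fold enrichment of 31.97 and no H3K4me2 peak at any stage. It fell from 197, 161 and 139.9 TPM in GMPs to 14.96, 19.1 and 19.5 TPM in matNeu cells. *Acer3* had a log2 change of -3.14 ± 0.17 SE for matNeu against GMP (adjusted p = 3.14e-08). *Klrd1*, the natural killer cell receptor CD94, also had a lost site over its promoter, of fold enrichment 33.2, and was not tested, with levels of 0, 0 and 0.257 TPM in GMPs, 0, 0 and 0 TPM in preNeu cells and 0, 0.826 and 0 TPM in matNeu cells. *Snx18*, a sorting nexin, was higher in matNeu cells than in GMPs (log2 change of 2.54 ± 0.41 SE for matNeu against GMP, adjusted p = 0.000172), as was *Macc1*, a low-expressed gene named for its link to metastasis (log2 change of 1.06 ± 0.23 SE for matNeu against GMP, adjusted p = 0.00155). *Rap1a*, a small GTPase of integrin activation, had 131, 116 and 169.8 TPM in GMPs, 249.9, 248 and 239 TPM in preNeu cells and 93.9, 119 and 152 TPM in matNeu cells, with a log2 change of -0.20 for matNeu against GMP (adjusted p = 0.338) that became 0.68 (adjusted p = 0.00769) with median-ratio scaling.

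The remaining genes with the largest changes came from both directions. Higher in preNeu cells than in GMPs were *Inhba*, an activin subunit with 3 lost and 14 kept sites (log2 change of 7.32 ± 0.28 SE for preNeu against GMP, adjusted p = 1.79e-08), *Wfdc21*, a whey acidic protein family member (log2 change of 7.18 ± 0.39 SE for preNeu against GMP, adjusted p = 2.39e-07), and *Fcnb*, the lectin ficolin B of granules (log2 change of 6.66 ± 0.14 SE for preNeu against GMP, adjusted p = 2.43e-10). *Inhba* and *Fcnb* were high in preNeu cells and low before and after, with *Inhba* at 0.783, 0.102 and 0.119 TPM in GMPs, 185, 236 and 201 TPM in preNeu cells and 1.75, 2.03 and 3.62 TPM in matNeu cells. *Fcnb* gave 34.6, 34.2 and 42.2 TPM in GMPs, 4049, 3902 and 3532 TPM in preNeu cells and 5.17, 6.85 and 5.68 TPM in matNeu cells, and its lost site over the promoter, chr2:28084765-28085326, was marked in GMP and preNeu cells and not in matNeu cells. In matNeu cells *Il1r2*, the decoy receptor for interleukin 1, reached 2774, 2474 and 2774 TPM from 1.50, 4.80 and 0 TPM in GMPs (log2 change of 10.10 ± 0.47 SE for matNeu against GMP, adjusted p = 1.06e-08), and *Sirpb1b*, an activating receptor, 942, 902 and 976 TPM from 0.111, 0.218 and 0.168 TPM (log2 change of 9.66 ± 0.20 SE for matNeu against GMP, adjusted p = 8.34e-11). *Sirpb1b* has near-identical copies, among which the counting could have split reads. Lower in preNeu cells than in GMPs were *Ccl9*, a chemokine (log2 change of -5.63 ± 0.19 SE for preNeu against GMP, adjusted p = 8.2e-09), *Ms4a6c*, a membrane protein of monocytic cells (log2 change of -5.62 ± 0.26 SE for preNeu against GMP, adjusted p = 8.45e-08), and *Ifi209*, an interferon-inducible gene of a family of close copies (log2 change of -5.36 ± 0.30 SE for preNeu against GMP, adjusted p = 2.82e-07). Lower in matNeu cells were *Tifab*, an inhibitor of TIFA signalling with 4 lost sites (log2 change of -7.18 ± 0.29 SE for matNeu against GMP, adjusted p = 3.55e-09), and *Adgrg1*, the adhesion receptor GPR56 of stem cells (log2 change of -6.47 ± 0.34 SE for matNeu against GMP, adjusted p = 2.36e-08).

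**Figure D5:**
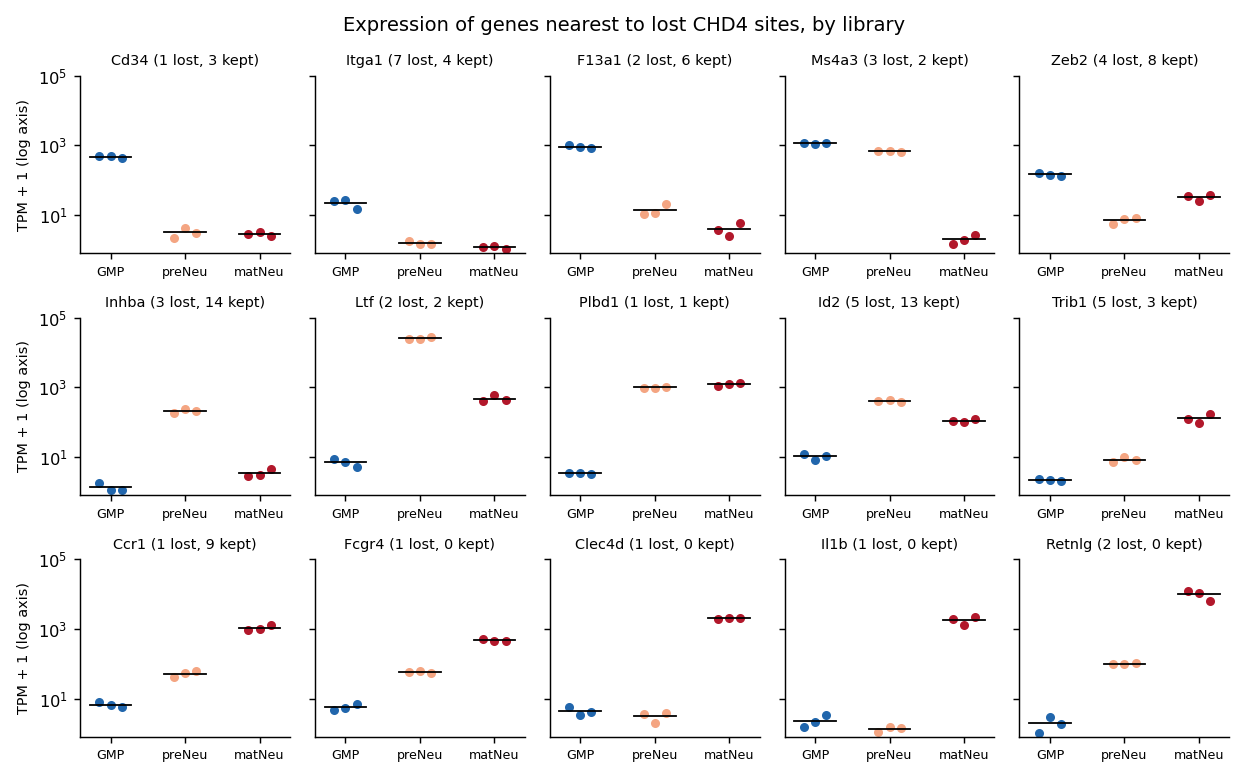
TPM + 1 on a log axis (y) in the 3 libraries of each stage (x) for 15 genes nearest to lost sites, with the number of lost and kept strong sites in each title and lines at the stage means. *Cd34*, *Itga1* and *F13a1* are high in GMPs, *Ltf* and *Inhba* in preNeu cells, and *Retnlg*, *Il1b* and *Clec4d* in matNeu cells, where *Retnlg* lies between 6505 and 12529.9 TPM.

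At 77 genes 2 or more strong sites were present and every one was lost, with at most 3 per gene. Among the 12 of these with the most lost sites and the highest summed fold enrichment were *Alox5*, the lipoxygenase that starts leukotriene synthesis, *Aqp9*, a channel for water and glycerol, and *Fcgr2b*, the inhibitory receptor for immunoglobulin G, which were chosen for description after their values were seen. *Alox5* levels were 28.3, 20.3 and 21.5 TPM in GMPs, 361, 369 and 425 TPM in preNeu cells and 693, 794 and 824 TPM in matNeu cells, without overlap (log2 change of 4.99 ± 0.14 SE for matNeu against GMP, adjusted p = 4.74e-10). *Aqp9* was low until the last stage, with 4.24, 2.34 and 1.07 TPM in GMPs, 0.810, 1.58 and 3.08 TPM in preNeu cells and 424, 525 and 396 TPM in matNeu cells. *Aqp9* had a log2 change of 7.08 ± 0.37 SE for matNeu against GMP (adjusted p = 2.16e-08). *Fcgr2b* went the other way, at 205, 190.3 and 187 TPM in GMPs, 199.7, 219 and 198 TPM in preNeu cells and 41.5, 48.8 and 54.8 TPM in matNeu cells. *Fcgr2b* had a log2 change of -1.99 ± 0.13 SE for matNeu against GMP (adjusted p = 1.07e-07). *Pkn2* and *Gm10260*, which also had 3 lost sites and no kept one, stood at a log2 change of -0.33 (adjusted p = 0.357) and -3.02 (adjusted p = 9.09e-05) for matNeu against GMP.

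Of the loci that the study examined by ChIP-qPCR and *Csf1*, 3 had a lost site nearest. These were *Cd34* with 1 lost and 3 kept strong sites, *Fcgr4* with 1 lost and none kept, and *Jun* with 2 lost and 14 kept. *Mmp8*, *Hal*, *Rhobtb1*, *Meis1* and *Csf1* had kept strong sites only, *Csf1r* and *Cfp* had WT sites under the minimum, and *Hoxa9* was nearest to no CHD4 site. For *Cd34*, *Csf1r* and *Csf1* the study reported a loss of CHD4 in *Gfi1*-/- GMPs. It also reported such a loss by ChIP-qPCR at loci chosen from its own lost sites. Its peak list and its choice of loci differ from the fold minimum and nearest-gene assignment used here. A kept strong site nearest to a gene therefore does not show that CHD4 stayed at the region measured there. *Gfi1* itself had 6 kept and no lost strong site, and its levels in WT cells were 8.01, 5.88 and 17.5 TPM in GMPs, 20.1, 23.2 and 29.2 TPM in preNeu cells and 0, 0 and 0.145 TPM in matNeu cells. *Chd4* was nearest to no CHD4 site, and its levels were 86.2, 81.6 and 71.4 TPM in GMPs, 36.5, 40.9 and 49.1 TPM in preNeu cells and 33.1, 26.8 and 35.2 TPM in matNeu cells. *Chd4* had a log2 change of -1.31 ± 0.17 SE for matNeu against GMP (adjusted p = 2.76e-05).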

How the data were processed

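The authors deposited peak lists in which MACS2 gives each peak a fold enrichment, a ratio of signal to background, and a −log10 q-value, and a table of TPM, a length-scaled share of transcripts, for 9 RNA-seq libraries. The submitters' processing notes name FastQC 0.11.5, MultiQC 1.6, Trimmomatic 0.36, BWA 0.7.17, MACS2 2.1.0, kallisto 0.44.0 and build mm10. Peak thresholds and read depths are not given in the sources used here, and peaks were called on 1 library per group.

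CHD4 sites with a WT fold enrichment of at least 15 were split by an overlap of 1 bp with *Gfi1*-/- peaks. Nearest genes and locations came from GENCODE M21 on GRCm38. H3K4me2 and ATAC-seq peaks were scored at the CHD4 summit and motifs in 200 bp around it. Shares at kept sites were weighted to the fold enrichment of the lost sites in steps of 1 unit, and 95% intervals cover counting error only.

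The deposited values are TPM, so the count test of the study's methods was not run. A limma 3.58.1 fit with a trend (R 4.3.3) was made on log2(TPM + 1) of the 9 libraries for the 13061 genes that reached 1 TPM in 3 or more libraries, with Benjamini-Hochberg adjustment at 0.05 over all of them. Code was tested on simulated data (Python 3.11.15, pandas 2.3.3, numpy 2.4.6, matplotlib 3.10.9). No column of the table was left unmapped.

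Sites and gene lists were chosen with earlier results of these data known. Named genes were those nearest to the 15 strongest lost sites, the 10 with the most lost sites, members of 10 lineage lists next to a lost site, the 5 largest called changes each way against GMPs in either neutrophil stage, the loci of the study's ChIP-qPCR, *Csf1*, *Gfi1* and *Chd4*. The GFI1 and H3K4me3 lists, with 3105 of 26963 and 2179 of 20218 peaks beyond the ends of mouse chromosomes, were not used. Some genes that meet the naming rule or belong to the marker lists are not reported here.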

Additional observations from a re-analysis of the deposited data

How the results depend on the processing

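Of 190 alternatives for the site results and the counts of genes, 17 moved a value, 12 ended and 3 added an interval without 0, and 158 did none of these. Among the 158 are differences with an interval around 0 that changed sign, such as SPI1 (-0.0262 without weighting). With a fold enrichment minimum of 10 there were 6355 lost sites (51.3%), and with 20 there were 377 (9.48%). The lost share was 24.8% if a *Gfi1*-/- peak within 500 bp counted, 27.95% with summits within 200 bp, and 28.4% with *Gfi1*-/- peaks of −log10 q of at least 5.

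In percentage points, the GMP difference in H3K4me2 was -0.29 and -1.02 with minimums of 20 and 10, -7.15 within 500 bp, -2.96 with at least 50% of the peak covered and -3.07 on autosomes. The preNeu difference was -3.66 and -2.53 with minimums of 20 and 10 and -1.82 with lists of equal covered length, which gave -2.78 in matNeu cells. The ATAC-seq difference was -3.03 without weighting and -3.74 with a minimum of 20. GFI1 motif differences were -1.17 (windows of 100 bp), -1.28 (no weighting) and -2.60 (minimum of 20). The SPI1 difference was 2.56 in windows of 100 bp, C/EBP -0.69 there and -2.55 outside promoters, and RUNX -8.00 with a minimum of 20. The cause of these shifts was not tested.

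Genes without a kept strong site gave 71 higher and 133 lower calls for preNeu against GMP, 104 and 146 for matNeu against GMP, and 112 and 113 for matNeu against preNeu, out of fewer genes. Median-ratio scaling left 233 lower calls for preNeu against GMP and turned the sign for matNeu against GMP of *Etv6* (0.21), *Pik3r1* (0.66), *Cd47* (0.0675) and *Rap1a* (0.68).

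Replicate numbers did not pair the samples (correlations of deviations -0.039 to 0.123). A fit with the replicate block gave 237 higher and 360 lower calls for preNeu against GMP, 349 and 408 for matNeu against GMP, and 333 and 304 for matNeu against preNeu. Leaving out 1 library gave 220 to 240 higher and 322 to 368 lower calls, 334 to 349 and 392 to 412, and 305 to 339 and 281 to 308, in the same order. With 1 ChIP-seq library per genotype and unknown depth, a lost site may be one below the calling limit of the shorter *Gfi1*-/- list.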
